A study of Drosophila melanogaster with 15 samples.

Results

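The 6 genes described here encode proteins that set up and hold cell polarity in Drosophila melanogaster: *par-1* (FBgn0260934), *aPKC* (FBgn0261854), *par-6* (FBgn0026192), *baz* (FBgn0000163), *scrib* (FBgn0263289) and *l(2)gl* (FBgn0002121). They were taken by gene ID from 3 assemblies of full-length transcript isoforms, and they were 6 of 11544 FlyBase genes whose isoforms lay on 1 chromosome and strand. Together they had 308 of the 74482 isoforms assembled in heads, 114 of 20701 in embryos and 50 of 13398 in ovaries. All flies were of the w1118 strain, carried no transgene or other mutation named in the labels, and were untreated. Heads came from 3-day-old adults (6 cDNA libraries, of which 4 had been enriched for molecules above 3 kb and 2 had not). Embryos were 14 to 16 h or 18 to 20 h old (3 libraries each, 50 embryos per library). Ovaries came from 3-day-old virgin females (3 libraries, 20 ovaries per library). All embryo and ovary libraries had been enriched for molecules above 3 kb. The cDNA was read on a nanopore instrument after 14 cycles of PCR. Replicates of a tissue were merged before its isoforms were assembled from full-length reads. There was therefore 1 assembly per tissue, with no read numbers and no replicate values. Differences between tissues are given as counts with no test.

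Polarised cells divide their cortex into domains that exclude each other. In epithelia the kinase aPKC, with Par-6 and the scaffold Bazooka (*baz*, Par-3), marks the apical side, while the kinase Par-1 and the Scribble module (Scrib, Dlg and Lgl) mark the basolateral side. aPKC phosphorylates Par-1 and Lgl and releases them from the apical cortex, and Par-1 phosphorylates Bazooka and keeps it from the lateral cortex. The same proteins place the anterior-posterior axis of the oocyte, where Par-1 organises the microtubules along which *oskar* mRNA travels, and they orient the asymmetric divisions of neuroblasts.

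An isoform is a chain of exons with a defined start and end. A transcription start site (TSS) is here a cluster of isoform 5′ ends with no gap above 50 nt, and a poly(A) site (PAS) is a cluster of 3′ ends with no gap above 150 nt; they were set for each gene over the 3 assemblies together and numbered in the direction of transcription as P1, P2 and so on and E1, E2 and so on. An isoform is counted once however many reads supported it, so its number is not an expression level, and the head assembly was the most deeply sequenced. Marker genes of each labelled tissue had isoforms in it: 5 of 5 neural and photoreceptor genes in heads, 5 of 5 genes of the embryonic body plan and trachea in embryos, and 6 of 6 germline and eggshell genes in ovaries. A further planned ovary marker, *nos*, had no match by symbol in the annotation and was left out. Of the head markers 2 also had isoforms in embryos and 0 in ovaries. Of the ovary markers 2 had them in heads and 1 in embryos, and of the embryo markers 5 in heads and 0 in ovaries.

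*par-1*, *scrib* and *aPKC* had many isoforms and *baz*, *par-6* and *l(2)gl* few. The head assembly held 150 isoforms of *par-1*, that of embryos 60 and that of ovaries 29. For *scrib* the numbers were 85, 36 and 15 in the same order of tissues, and for *aPKC* 65, 15 and 4. *baz* and *par-6* each had 4 isoforms in heads and 1 in either of the other assemblies. *l(2)gl* had 1 isoform in embryos and 0 in heads and ovaries. All 5 members found in every assembly had more isoforms in heads than in embryos and more in heads than in ovaries, which was so for 80.5% and 80.3% of the 4382 genes present in all 3 assemblies. Of these members, 3 had more isoforms in embryos than in ovaries, against 27.7% of the same genes.

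**Figure D1:**
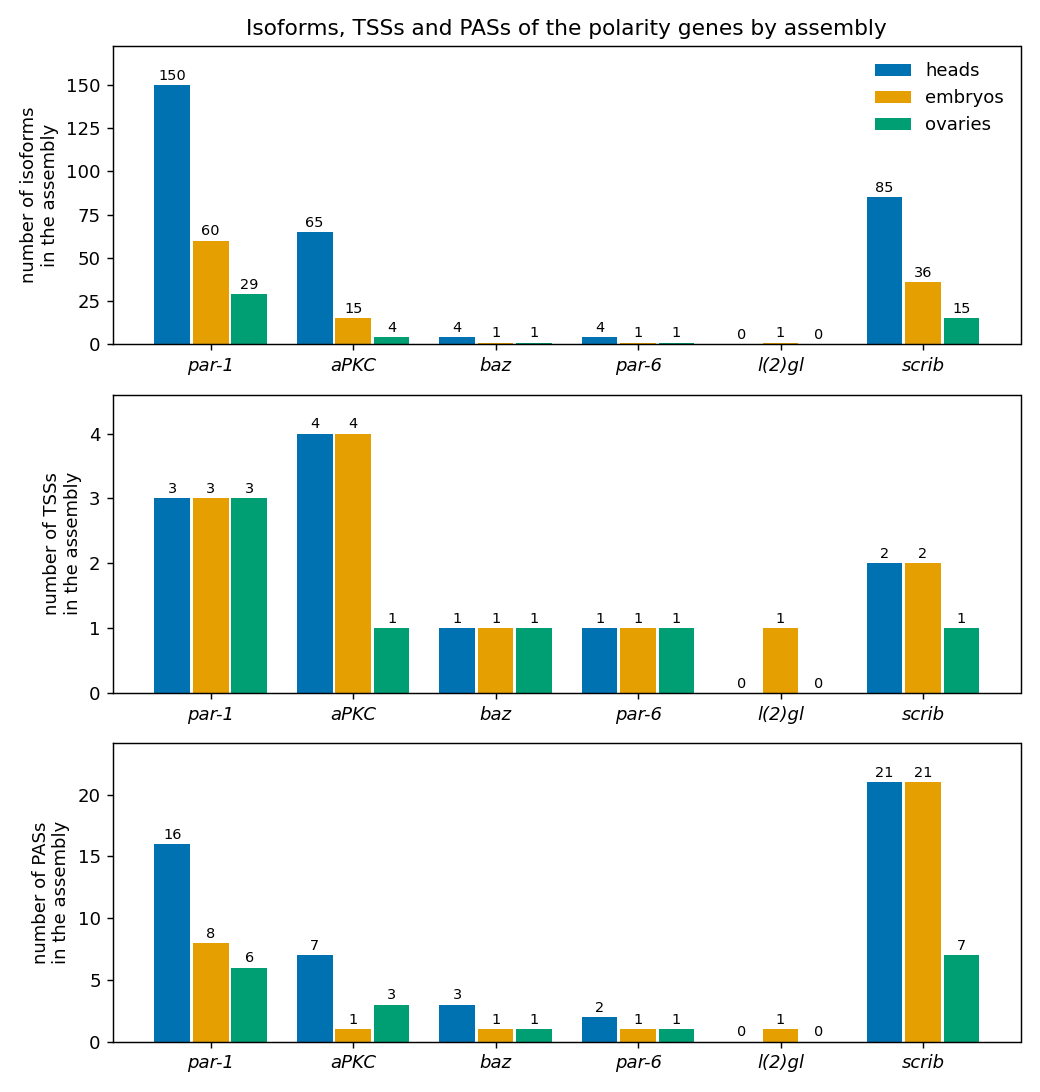
Number of isoforms (top), TSSs (middle) and PASs (bottom) of the 6 polarity genes in the assemblies of heads (blue), embryos (orange) and ovaries (green); the number is written above each bar. *par-1* stood highest for isoforms in every tissue (150, 60 and 29), while *scrib* had 21 PASs in both heads and embryos.

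Against all genes, *par-1* was near the top of each assembly. In heads, 12 of 11280 genes (0.106%) had as many isoforms or more, itself included. In embryos these were 4 of 6525 genes (0.0613%) and in ovaries 3 of 6690 (0.0448%). For *scrib* the shares were 0.567% in heads, 0.291% in embryos and 0.523% in ovaries. For *aPKC* they were 0.913% in heads, 2.62% in embryos and 10.9% in ovaries. *baz* and *par-6* lay in the middle of the head assembly, with 35.4% of genes at 4 isoforms or more. The genes with isoform numbers most like those of *par-1* over the 3 assemblies, by the largest difference in log2(isoforms + 1), were *lola* (104 in heads, 54 in embryos and 48 in ovaries; difference 0.71), *mtd* (217, 47 and 17; 0.74) and *shep* (223, 35 and 18; 0.76). The nearest to *aPKC* were *jar* (0.26), *dnc* (0.30) and *RhoGAPp190* (0.39), and the nearest to *scrib* were *Svil* (0.35), *Patronin* (0.41) and *anne* (0.43).

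**Figure D2:**
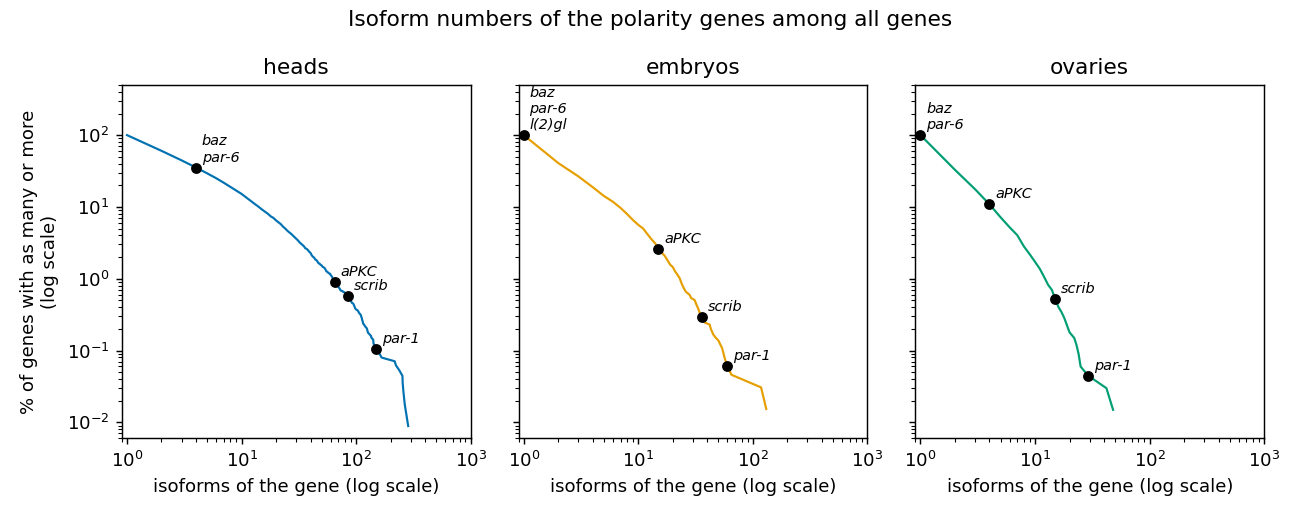
Share of genes with as many isoforms or more (y axis, percent, log scale) against the number of isoforms of a gene (x axis, log scale) in heads, embryos and ovaries; the line covers all FlyBase genes and points mark the polarity genes. *par-1* lies at the lower right end of each line, and *baz* and *par-6* at its upper left.

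Among the 6 genes, alternative starts were found for *par-1*, *aPKC* and *scrib*. Of the members with isoforms, 3 of 5 in heads, 3 of 6 in embryos and 1 of 5 in ovaries had several TSSs, where all genes had 17.1%, 13.1% and 8.50%. Several PASs were found for 5 of 5 members in heads, 2 of 6 in embryos and 3 of 5 in ovaries, where all genes had 37.8%, 26.7% and 17.2%. All isoforms of a TSS began at exactly the same nucleotide, and every TSS lay at most 1 nt from an annotated 5′ end. This position is not an independent measurement, since the assembly kept 5′ ends that a promoter database supported.

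*par-1* (chromosome 2R, plus strand, 19456170-19485686 of the dm6 build) encodes the kinase that marks the basolateral cortex and the oocyte's posterior. It was transcribed from 3 promoters in all tissues, but their shares of isoforms differed. P1 at 19456171 began 77 of 150 isoforms in heads (51.3%), 30 of 60 in embryos (50%) and 23 of 29 in ovaries (79.3%). P2 at 19462503 began 39 in heads (26%), 9 in embryos (15%) and 1 in ovaries (3.45%). P3 at 19467467 began 34 in heads (22.7%), 21 in embryos (35%) and 5 in ovaries (17.2%). P2 had more isoforms than P3 in heads and fewer in the other assemblies.

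Each *par-1* promoter led to an annotated start codon of its own. The most upstream annotated start codon in the isoform was that at 19459933 in 76 isoforms of heads, 30 of embryos and 22 of ovaries, that at 19464642 in 38, 9 and 1, and that at 19468971 in 35, 21 and 5. Predicted proteins, read from that codon to the stop that followed, ran up to 1174 residues in heads, 1189 in embryos and 1166 in ovaries, with medians of 943, 955.5 and 885. There were 127 distinct predicted proteins among 147 readable isoforms in heads, 58 among 60 in embryos and 26 among 28 in ovaries. Of the 10 distinct annotated Par-1 proteins, 7 were found in heads, 5 in embryos and 3 in ovaries, by 8, 5 and 3 isoforms. No protein was measured.

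At the 3′ side *par-1* had 16 PASs in heads, 8 in embryos and 6 in ovaries (18 in all), of which 4 were annotated. These 4 held 122 of 150 isoforms in heads (81.3%), 54 of 60 in embryos (90%) and 26 of 29 in ovaries (89.7%). The most distal, E18 at 19485686, was the end of 50 head (33.3%), 24 embryo (40%) and 4 ovary isoforms (13.8%). The proximal E11 at 19482575 ended 43 in heads (28.7%), 26 in embryos (43.3%) and 11 in ovaries (37.9%). E15, at 19484373-19484586, ended 7 in heads (4.67%), 1 in embryos (1.67%) and 7 in ovaries (24.1%). In ovaries E15 was thus ahead of E18, while in heads and embryos E18 led it. All 7 ovary isoforms at E15 ended where 12 of the last 20 nt of the genome were A. The part of priming at these A in the ovary count was not tested.

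E8 to E12 belonged to 1 last exon, which began at 19481151 and carried the stop codon ending at 19481163. E13 to E18 belonged to the next, which began at 19483349 with the stop ending at 19483407 (2 head isoforms began theirs at 19483168). The upstream last exon was used by 75 head, 32 embryo and 17 ovary isoforms, and the downstream one by 64, 25 and 11. The choice went with the start site in different proportions. In heads, P2 isoforms took the upstream last exon 26 times and the downstream one 8 times, while P1 isoforms did so 33 and 39 times and P3 isoforms 16 and 17 times. In embryos the counts were 12 and 15 for P1, 6 and 3 for P2, and 14 and 7 for P3. In ovaries they were 12 and 10 for P1, 1 and 0 for P2, and 4 and 1 for P3. Within P2 of heads, the most proximal of the annotated PASs, E9 at 19481583, ended 13 isoforms, against 6 of P1 and 3 of P3. A total of 28 TSS-PAS combinations was seen in heads, 14 in embryos and 9 in ovaries, out of 30 seen anywhere.

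**Figure D3:**
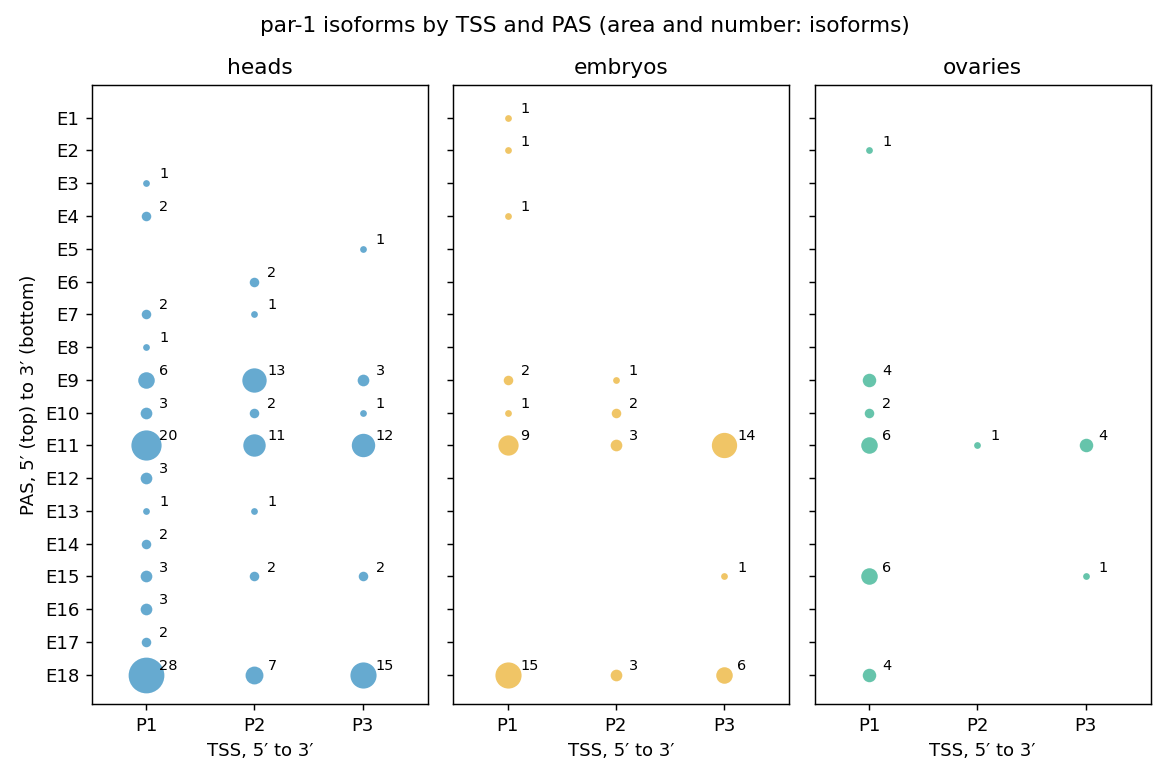
Isoforms of *par-1* by TSS (x axis, P1 to P3) and PAS (y axis, E1 at the top to E18 at the bottom) in heads, embryos and ovaries; the area of a circle and the number beside it give the isoforms. In heads all 3 TSSs reach E9, E11, E15 and E18, while in ovaries E18 is joined only to P1, with 4 isoforms.

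Inside *par-1*, 3 neighbouring exons were used differently in ovaries. A 114-nt exon (19474528-19474641), a whole number of codons, was in 43 of 141 isoforms of heads (30.5%; 95% Wilson interval 23.5 to 38.5%), in 13 of 57 of embryos (22.8%; 13.8 to 35.2%) and in 0 of 28 of ovaries, which allows a share of up to 10.7%. It was joined to P1 in 30 head isoforms, to P2 in 8 and to P3 in 5. These intervals and limits cover counting error only and treat isoforms as draws, which they are not.

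The next exon ended at 19477704 and had 3 alternative 3′ splice sites, which made it 89, 71 or 44 nt long, or it was skipped. In heads the 89-nt form was in 27 of 141 isoforms (19.1%), the 71-nt form in 36 (25.5%), the 44-nt form in 36 (25.5%) and the skip in 42 (29.8%). In embryos these were 10 of 57 (17.5%), 22 (38.6%), 14 (24.6%) and 11 (19.3%). In ovaries they were 19 of 28 (67.9%), 6 (21.4%), 3 (10.7%) and 0, and the limit for the skip was again 10.7%. The longest form led in ovaries, where no isoform skipped the exon. Leaving out isoforms that ended at genomic A (at least 12 A among the 20 nt on one side), an alternative added after seeing the data, left 15 ovary isoforms with the 89-nt form and 0 that skipped.

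The exon after it began either at 19478742 (124 nt) or 10 nt further in (114 nt, a different exon from the one above). The 124-nt form was in 94 of 141 isoforms of heads (66.7%), 46 of 57 of embryos (80.7%) and 28 of 28 of ovaries (100%), and the 114-nt form in 41 (29.1%), 11 (19.3%) and 0. Both choices went together. Isoforms with the 89-, 71- or 44-nt exon took the 124-nt form in 93 cases in heads, 46 in embryos and 28 in ovaries, and the 114-nt form in 3, 0 and 0. Isoforms that skipped it took the 124-nt form in 1, 0 and 0 cases and the 114-nt form in 38, 11 and 0. The lengths 89, 71 and 44 nt each leave 2 nt beyond whole codons, which the 124-nt form completes, while the 114-nt form is itself a whole number of codons, so that both frequent pairings kept the reading frame.

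Upstream of these exons, 2 pairs of alternative 5′ splice sites showed no such split between tissues. An exon of 185 or 194 nt had the longer form in 62 of 143 isoforms of heads (43.4%), 25 of 57 of embryos (43.9%) and 14 of 28 of ovaries (50%). An exon of 169 or 184 nt had the longer form in 59 of 145 (40.7%), 20 of 57 (35.1%) and 10 of 28 (35.7%), and 3 ovary isoforms skipped it. Over all 5 choices, 40 distinct patterns were seen in heads, 23 in embryos and 12 in ovaries, and 43 in any tissue. Of the 44 *par-1* introns, 15 were not annotated (12 of them seen in heads, 2 in embryos and 3 in ovaries), and all 44 had GT-AG ends.

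Among the apical genes, *aPKC* (2R, minus strand, 14944458-14962969), which encodes the atypical protein kinase C, differed most between tissues in its starts. Its 4 TSSs were all used in heads and embryos and 1 of them in ovaries. P1 at 14962969 began 14 of 65 isoforms in heads (21.5%), 4 of 15 in embryos (26.7%) and 4 of 4 in ovaries. P2 at 14958456 began 42 in heads (64.6%), 4 in embryos (26.7%) and 0 in ovaries. P3 at 14950911 began 7, 4 and 0, and P4 at 14949745 began 2, 3 and 0. For each of these starts, 0 of 4 isoforms allows a share of up to 75%.

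In *aPKC*, 2 adjacent exons alternated. A 122-nt exon (14947179-14947300) was in 18 of 37 isoforms of heads (48.6%; Wilson interval 33.4 to 64.1%), 0 of 15 of embryos (up to 20%) and 0 of 4 of ovaries (up to 75%). A 116-nt exon (14946704-14946819) was in 20 of 43 isoforms of heads (46.5%), 15 of 15 of embryos and 4 of 4 of ovaries. In heads 17 isoforms held the 122-nt exon alone, 19 the 116-nt exon alone and 1 held both; the 15 embryo and 4 ovary isoforms all held the 116-nt exon alone. Both lengths leave 2 nt beyond whole codons, so that either exon alone gives the next one the same reading frame. Leaving out isoforms with a retained intron, also added after seeing the data, left the 122-nt exon in 11 head isoforms, with 7 skipping it. The 116-nt exon was then in 8 head isoforms, with 10 skipping it, and in 6 embryo isoforms, with 0 skipping it. The 122-nt exon was joined to P1 in 4 head isoforms and to P2 in 14, and to P3 or P4 in 0.

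Most *aPKC* isoforms of heads and embryos also kept an intron. At least 1 annotated intron lay whole within an exon, that is, was retained, in 45 of 65 isoforms in heads (69.2%), 9 of 15 in embryos (60%) and 1 of 4 in ovaries (25%), where all genes had 46%, 30.4% and 15.7%. *par-1* had 10%, 3.33% and 0%, and *scrib* 21.2%, 13.9% and 0%. Of the readable *aPKC* isoforms, 19 of 63 in heads, 9 of 15 in embryos and 4 of 4 in ovaries reached an annotated stop codon. The 4 ovary isoforms all predicted the annotated protein of 606 residues, while P2 with its start codon at 14953515 predicted proteins of 951 to 960 residues in 10 head and 2 embryo isoforms that ended at the annotated stop whose last base is 14946516.

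The 3′ end of *aPKC* was nearly uniform in heads and embryos. The most distal PAS, E8 at 14944459, ended 56 of 65 isoforms in heads (86.2%), 15 of 15 in embryos and 1 of 4 in ovaries (25%). In ovaries 2 isoforms ended at E7 (14944892-14945115) and 1 at E5 (14945595). The most distal end itself was the same position in all 3 assemblies, as it was for *par-1*, *par-6* and *baz*.

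**Figure D4:**
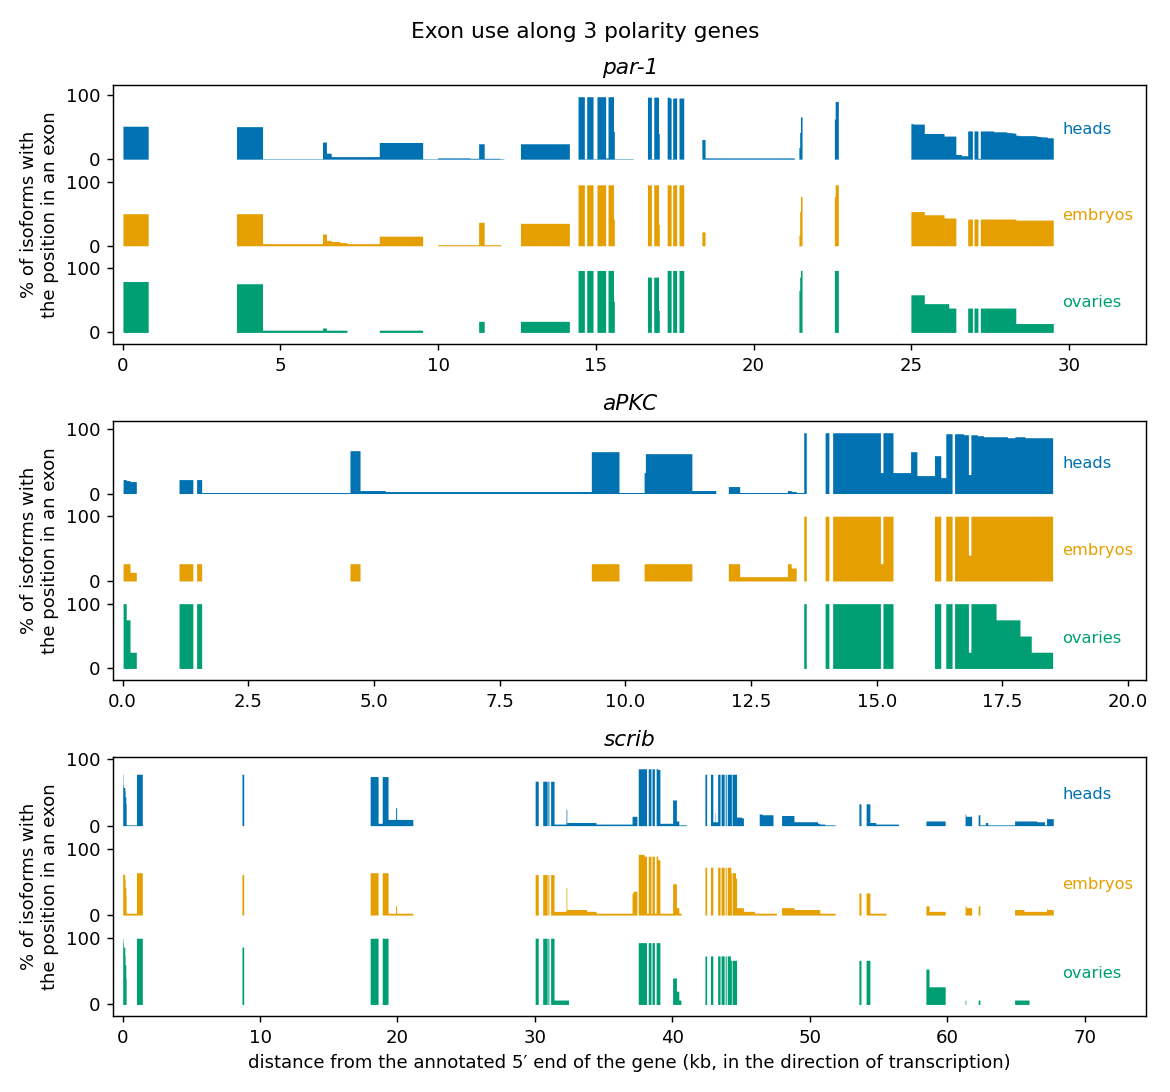
Share of isoforms that hold a position in an exon (y axis, percent) along *par-1*, *aPKC* and *scrib* (x axis, kb from the annotated 5′ end in the direction of transcription) in heads (top of each panel), embryos and ovaries. In *aPKC* the ovary track is empty from the last P1 exon to the exons shared by all isoforms, where P2, P3 and P4 start in heads and embryos.

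The other apical genes had few isoforms. *par-6*, the Par-6 adaptor that binds aPKC and Cdc42, lies on the X chromosome (plus strand, 17703352-17707096). *baz*, the scaffold that recruits both, lies on the same chromosome (plus strand, 17160006-17200728). An identical *par-6* isoform of 3031 nt and an identical *baz* isoform of 6759 nt were present in all 3 assemblies, predicting the annotated proteins of 351 and 1464 residues. The extra head isoforms of *par-6* were a form ending at the annotated site 17706628 in place of 17707096 and 2 that retained an intron, with predicted proteins of 42 and 107 residues. The extra head isoforms of *baz* were 1 with a retained intron, predicting 1300 residues, and 2 that ended in a last exon from 17175347, far upstream, with a predicted protein of 42 residues.

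The last 30 nt of these isoforms (dm6, X chromosome, plus strand, from the RefSeq genome sequence) are shown because they separate ends of different kinds. Capitals mark the poly(A) signal AATAAA or its variant ATTAAA. The distal *par-6* and *baz* ends carry one within the 30 nt, the proximal *par-6* end carries neither, and the upstream *baz* end at 17176628 closes on a run of A that is in the genome. The other upstream *baz* end, at 17178662, is not printed. It had neither signal within 50 nt and 8 A in its last 20 nt.
par-6, end at 17707096: ttttAATAAAcctaagagaacttgtaaccg
par-6, end at 17706628: gttatgtacgtacccctgtacacacaattg
baz, end at 17200726: cgagttgcgaATTAAAcgttaaaaattttc
baz, end at 17176628: tgaaaaaataacaaaaaaaaaaaaaaaaaa

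The last intron of *baz* (X, 17195254-17200286, 5033 nt, annotated) had AT-AC ends in all 3 assemblies. Of all introns, 17 of 52679 in heads, 12 of 35169 in embryos and 12 of 28908 in ovaries had AT-AC ends, and 98.9%, 99.1% and 99% had GT-AG ends. Its borders are printed with the exon in capitals; the intron's opening 6 nt are the same as those of the exon that follows it, so that an alignment can place this junction in more than 1 way.
baz, 5′ border: CCATTGTCatttatgtaaga
baz, 3′ border: tcagccttactccatgttacATTTATCA

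On the basolateral side, *scrib* (3R, plus strand, 26536350-26604051) encodes a scaffold with leucine-rich repeats and PDZ domains. It had 2 TSSs. P1 at 26536351 began 66 of 85 isoforms in heads (77.6%), 23 of 36 in embryos (63.9%) and 15 of 15 in ovaries. P2 at 26568614, within the gene, began 19 in heads (22.4%), 13 in embryos (36.1%) and 0 in ovaries. P2 isoforms led to an annotated start codon at 26573515 in 12 head and 13 embryo isoforms; that codon lies in a 347-nt exon (26573424-26573770), which 10 of 17 head isoforms and 11 of 11 embryo isoforms of P2 held as an internal exon, and no P1 isoform did in any assembly. Proteins predicted from the start codon of P1 isoforms, at 26537623, ran up to 2562 residues in heads, and those from 26573515 up to 2016.

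The letters around both *scrib* starts (dm6, plus strand) run from 70 nt before to 30 nt from the start on. Capitals mark the initiator-like letters TCAGT, the only motif searched that differed between both promoters. TCAGT, on either strand, was in the window of P2 and not of P1. In P2 its first base lay at -5 from the start, so it ended before the start. It was in 32.2% of the 14615 TSS windows of all genes. TATAAA and the DNA replication-related element TATCGATA, on either strand, were in neither window, and in 14.3% and 6.05% of all. A match is a description only.
scrib P1, chr3R:26536281-26536380: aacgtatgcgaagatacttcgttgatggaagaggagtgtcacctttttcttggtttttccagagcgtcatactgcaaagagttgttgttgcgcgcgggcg
scrib P2, chr3R:26568544-26568643: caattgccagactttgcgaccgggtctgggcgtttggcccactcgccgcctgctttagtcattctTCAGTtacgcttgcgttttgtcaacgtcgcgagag

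Counts of short *scrib* exons also differed between assemblies. A 30-nt microexon (26579439-26579468; 10 codons) was in 12 of 63 isoforms of heads (19%; Wilson interval 11.2 to 30.4%), 0 of 26 of embryos (up to 11.5%) and 0 of 11 of ovaries (up to 27.3%). A 75-nt exon (26556214-26556288; 25 codons) was in 15 of 58 isoforms of heads (25.9%; 16.3 to 38.4%), 4 of 22 of embryos (18.2%; 7.31 to 38.5%) and 0 of 15 of ovaries (up to 20%). For this exon the ranges of all 3 tissues overlapped. Leaving out isoforms that ended at genomic A in the same way left the microexon in 3 head isoforms, with 21 skipping it. It was then skipped by 18 embryo and 11 ovary isoforms and held by 0 of either. The 75-nt exon was then in 5 head isoforms, with 14 skipping it, and in 1 embryo isoform, with 12 skipping it. Both exons are printed on the plus strand of 3R in capitals with 20 nt of intron on either side, the microexon because only head isoforms held it and the 75-nt exon because head and embryo isoforms did.
scrib microexon: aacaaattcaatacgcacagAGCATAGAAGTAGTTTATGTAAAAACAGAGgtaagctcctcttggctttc
scrib 75-nt exon: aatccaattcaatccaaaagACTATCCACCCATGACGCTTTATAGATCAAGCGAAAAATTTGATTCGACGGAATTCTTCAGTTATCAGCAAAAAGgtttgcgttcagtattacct

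A 285-nt *scrib* exon (26576357-26576641; 95 codons) was in 27 of 68 isoforms of heads (39.7%), 13 of 26 of embryos (50%) and 3 of 11 of ovaries (27.3%). Without isoforms that ended at genomic A it was in 12 head isoforms, with 13 skipping it, and in 9 embryo isoforms, with 9 skipping it. The exon after it had 2 alternative 3′ splice sites 3 nt apart, giving 111 or 108 nt. The 111-nt form was in 51 of 68 isoforms of heads (75%), 20 of 26 of embryos (76.9%) and 10 of 11 of ovaries (90.9%). The shorter form went with the 285-nt exon in 14 of 15 head isoforms, 6 of 6 embryo isoforms and 1 of 1 ovary isoform, while the longer form did so in 13 of 51, 7 of 20 and 2 of 10. All 12 isoforms with the microexon had the 111-nt form, and 11 of them skipped the 285-nt exon. The splice site pair is shown with the 3 nt between both sites in capitals.
scrib tandem 3′ splice site: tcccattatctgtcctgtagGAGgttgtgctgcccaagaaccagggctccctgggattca

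**Figure D5:**
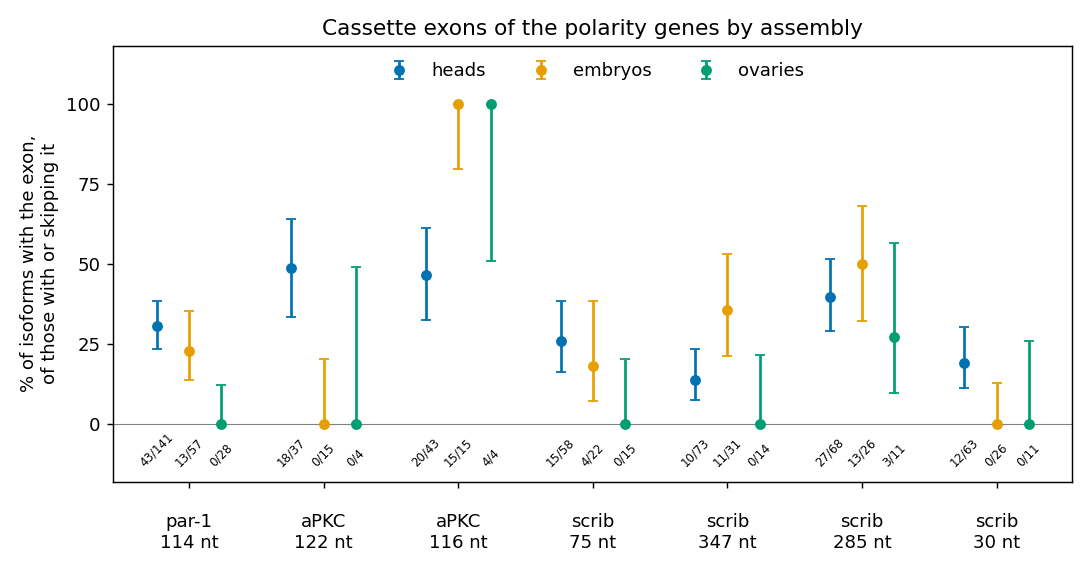
Share of isoforms with an exon (y axis, percent of isoforms that hold or skip it) for 7 cassette exons of *par-1*, *aPKC* and *scrib* in heads, embryos and ovaries; bars are 95% Wilson intervals for counting error, and the counts stand under each point. The *par-1* exon of 114 nt and the *scrib* exons of 75 and 347 nt were at 0 in ovaries (for the 347-nt exon, held only with P2, ovaries had no P2 isoform), and the *aPKC* exon of 122 nt and the *scrib* exon of 30 nt were at 0 in embryos and ovaries.

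The 3′ ends of *scrib* were the most scattered of the 6 genes: 21 PASs in heads, 21 in embryos and 7 in ovaries, and 32 in all, of which 5 were annotated. The last exon from 26582665 was used by 15 of 85 isoforms in heads and by 0 in embryos and ovaries. Of those 15, 14 ended at E14 (26583674), where 12 of the last 20 nt were A and AATAAA lay within 50 nt. The last exon from 26594776 was used by 6 in heads, 5 in embryos and 8 of 15 in ovaries. The last exon from 26603560, the most distal within the *scrib* locus, was used by 9, 2 and 0. Isoforms from P1 and the last exon at 26594776 predicted, among others, an annotated protein of 1756 residues in 2 head, 3 embryo and 5 ovary isoforms.

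Many *scrib* ends stood beside genomic A. At least 12 of the 20 nt on one side of the 3′ end were A for 58 of 85 isoforms in heads (68.2%), 14 of 36 in embryos (38.9%) and 2 of 15 in ovaries (13.3%), where all genes had 28.4%, 29.5% and 22%. For *par-1* these were 6%, 5% and 27.6%, and for *aPKC* 6.15%, 0% and 50%. Further, 13 head, 12 embryo and 3 ovary isoforms of *scrib* ended within annotated coding sequence, and 11, 11 and 3 reached their end before any stop codon. The part of priming at internal A in these ends was not tested. The last 30 nt of 4 *scrib* ends (3R, plus strand) show unlike contexts, with AATAAA in capitals where it falls within the 30 nt. The upstream pair closed on genomic A. The annotated end at 26596188 did not, and that at 26604051 had AATAAA within 50 nt but also 12 A in the 20 nt after it.
scrib, end at 26557462 (8 of 85 head isoforms ended here or 3 nt upstream): gggccgcttttcaaaaaaaaaaaaaaaaaa
scrib, end at 26570794: cacacccctttcaaaaaaaaaaaaaaaaaa
scrib, end at 26596188 (annotated; 6 head, 2 embryo and 4 ovary isoforms): tactagaAATAAAggcgaatgatttaaatt
scrib, end at 26604051 (annotated; 9 head, 3 embryo and 0 ovary isoforms): acaaattgtatgcatttttatttgaaaaac

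Over the 6 genes, AATAAA lay in the last 50 nt of 15 of 58 distinct 3′ ends in heads (25.9%), 10 of 34 in embryos (29.4%) and 7 of 20 in ovaries (35%), and ATTAAA alone in 6, 3 and 1. For all genes AATAAA was at 33.5% of distinct head ends, 40.2% of embryo ends and 42.7% of ovary ends. At the main PASs of *par-1*, E11 and E18, each a single position, had AATAAA within 50 nt, and E9 had neither signal. E15 joins several end positions (19484373-19484586), of which some but not all had AATAAA within 50 nt.

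The most distal 3′ end differed between tissues in 1 member. For *par-1*, *aPKC*, *par-6* and *baz* it was the same position in all 3 assemblies (difference 0 nt). For *scrib* it lay 238352 nt further downstream in heads than in embryos and 240120 nt further than in ovaries, because of 1 head isoform that spliced over 281415 nt into *Tl* (the Toll receptor gene, 3R, 26799041-26842403), past 34 annotated genes, and ended with it. Without that isoform the differences were 0 nt for heads minus embryos and 1768 nt for heads minus ovaries, and embryos minus ovaries was 1768 nt. The ovary end behind the 1768 nt rested on 1 isoform, at 26602283. That position was not an annotated end, lay within annotated coding sequence and had neither poly(A) signal within 50 nt. So 1 of 5 members had a more distal end by over 150 nt in heads than in embryos (0 of 5 without that isoform), 1 of 5 in heads than in ovaries, and 1 of 5 in embryos than in ovaries. All genes had 26.0%, 30.6% and 17.1%, and 1 of 5 members is near these shares.

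*l(2)gl* (2L, minus strand, 9839-21376), whose product Lgl is a substrate of aPKC, had 1 isoform, in embryos. It started at 18570 on an annotated 5′ end, had 8 introns and 4060 nt, and ended at 11027, which is 1188 nt from the nearest annotated end. It predicted the annotated protein of 1161 residues. The gene's absence from the head and ovary assemblies says only that no isoform passed their filters.

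Counting isoforms as the same where splice sites differed by at most 10 nt, starts by 50 nt and ends by 150 nt, 10 head isoforms of *par-1*, 2 of *scrib*, 1 of *baz* and 1 of *par-6* had a match in both other assemblies, and 0 of *aPKC*. These were 14 of 308 head isoforms (4.55%; *par-1* alone 6.67%), where all genes had 6.53%. The count was 9 with exact splice sites and 31 by intron chain alone, of which *aPKC* then had 1. Of the 5 members in all assemblies, 4 had such an isoform, against 65.8% of 4382 genes. Isoforms with no match elsewhere were 64.7% in heads, 26.7% in embryos and 48.3% in ovaries for *par-1*, 87.1%, 66.7% and 53.3% for *scrib*, and 86.2%, 33.3% and 75% for *aPKC*, where all genes had 77.3%, 39.4% and 33.7%. The 10-nt tolerance joins the *par-1* forms of 185 and 194 nt and of 124 and 114 nt and the *scrib* forms of 111 and 108 nt.

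A list of 24 other polarity genes gives the setting. Isoforms were found for 23 of them in heads, 23 in embryos and 21 in ovaries, with medians of 11, 4 and 3 isoforms per gene. Medians were 34.5, 8 and 2.5 for the 6 members and 5, 1 and 1 for genes in all 3 assemblies. These sets are unlike: both lists include genes with 0 isoforms, while genes in all 3 assemblies have at least 1 in each. For heads, 34.5 lies between 65 (*aPKC*) and 4 (*baz* and *par-6*) and describes no member. The highest numbers in heads were those of *14-3-3zeta* (110), which encodes a protein that binds phosphorylated Bazooka, *Moe* (109), the cortical actin linker moesin, and *dlg1* and *cora* (97 each), a Scribble module scaffold and a septate junction protein. In embryos they were *cora* (43), *14-3-3zeta* (18) and *sdt* (16), a scaffold of the Crumbs complex, and in ovaries *brat* (14), *Moe* (12) and *14-3-3epsilon* (10). *brat*, a translational repressor in neuroblast progeny, had 13 head, 11 embryo and 14 ovary isoforms. *mira*, the adaptor that carries cell fate determinants, had 3 in embryos and 0 in heads and ovaries. *Cdc42*, the GTPase that binds Par-6, had 1 in heads and 0 in embryos and ovaries, and *pros*, a neural transcription factor, had 29, 2 and 0. Of the 23, 23 and 21 genes with isoforms, several TSSs were found for 12 in heads and 8 in either of the other assemblies. Several PASs were found for 16, 10 and 11. The sites of *mira* were not counted. Among all genes with isoforms, 17.1%, 13.1% and 8.50% had several TSSs and 37.8%, 26.7% and 17.2% several PASs.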

How the data were processed

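The values used were exon start and end positions, per the file headers of the deposited isoform assemblies (GTF), 1 per tissue; the authors had merged the replicates, aligned reads to dm6 with minimap2, corrected junctions with short reads and collapsed reads into isoforms with FLAIR, keeping promoter-supported 5′ ends and isoforms with at least 3 full-length reads. The study describes a filter that keeps isoforms whose 3′ ends are backed by poly(A)-tail reads, against internal priming and truncation. Whether the deposited assemblies precede that step is not stated there. By size, the 74482 isoforms of heads exceed the filtered total reported for every tissue combined, so the head file is not that final set. Its 3′ ends may therefore include some that the filter removes. The embryo and ovary files are smaller, and size does not decide the question for them. Isoforms were read by gene ID, and 304 genes with isoforms on several strands or chromosomes were left out of all-gene counts of TSSs, PASs and distal ends and of those over genes in all 3 assemblies, but not of isoform ranks. Annotation was Ensembl release 115 and sequence the RefSeq copy of the same genome build. Proteins were read from the most upstream annotated start codon in an isoform. Python 3.11.15 with numpy 2.4.6 was used; the counting steps were tested on simulated isoforms. Named were all 6 members, other polarity genes with the 3 highest numbers or none in an assembly, the nearest genes by isoform number, and exons or ends seen in only 1 or 2 tissues with at least 2 isoforms; further exons and ends were named after their values were seen. Members and lists were chosen with earlier results of these data known. Alternatives changed the windows, the ends kept and the gene assignment.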

Additional observations from a re-analysis of the deposited data

Results flagged for a closer look

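Isoforms without a FlyBase gene ID lay on the coding strand within the loci of the 6 genes, outside the counts above. There were 9 in heads, 5 in embryos and 2 in ovaries. They were listed because the numbers in heads and embryos exceed 3, the limit set for a count of 0, which does not set these loci apart. They made up 2.84%, 4.2% and 3.85% of the isoforms there, against 7.6%, 9.97% and 4.35% of the whole assemblies. Of these, 8 from heads, 5 from embryos and 2 from ovaries were unspliced, and 8, 4 and 2 began within 50 nt of a TSS of the member. At *par-1* lay 5, 3 and 1 of them, and at *scrib* 2, 2 and 1. Their lengths at *par-1* reached 7105 nt for heads, 5328 nt for embryos and 1374 nt for ovaries.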

How the results depend on the processing

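No paired analysis was possible because each deposited assembly pools all replicates of its tissue, and for the same reason no replicate could be left out. Keeping only isoforms with annotated ends left the 6 genes with 14 PASs in heads, 12 in embryos and 10 in ovaries (49, 33 and 18 as reported) and 28, 22 and 13 TSS-PAS combinations, and with 0 members more distal in heads than in embryos. That count was also 0 without the *scrib* isoform that ends in *Tl*, an alternative added after seeing the data. Adding isoforms of other gene IDs that share an intron brought in those of *Tl* and left 0 members more distal in embryos than in ovaries. Head isoforms matched in all 3 assemblies were 9 with exact splice sites and 31 by intron chain alone, against 14 as reported. A poly(A) signal within 30 nt was at 8 distinct ends in embryos, against 13 within 50 nt. Another 123 values of these counts stayed within 1.5 times, as did 38 exon counts, while 10 exon counts of *aPKC* and *scrib* did not. Part of the unmoved values could not move. No member had a single-exon isoform, so leaving these out changed nothing. All isoforms of a TSS began at the same nucleotide, so other TSS windows changed nothing either. Exon counts were of isoforms that held the exon, and a count of 0 stays 0 when isoforms are left out. Also added after seeing the data, leaving out isoforms with genomic A at the end moved no *par-1* exon count beyond 1.5 times. In ovaries 21 isoforms then skipped the 114-nt exon and 0 held it. That 0 was fixed beforehand, since 0 of 28 held the exon as deposited. Isoforms are not reads and the head assembly is the deepest, so a tissue difference in numbers cannot be told apart from one in depth. Size selection also differed, being absent only from 2 head libraries, and its part was not tested.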

Other observations

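Several *scrib* 3′ ends closed on the same letters. CCAGCA lay in the last 10 nt of 5 of 42 distinct *scrib* ends (11.9%; 13 head, 5 embryo and 0 ovary isoforms), against 2.61% of the distinct ends of all genes. By tissue it was 17.4% of head, 18.2% of embryo and 0% of ovary ends of *scrib*, and 2.56%, 3.19% and 0.396% for all genes. Of *par-1* ends 1 of 27 held it. These letters were chosen after the ends had been seen. An end of this kind is printed with the letters as they stand in the genome, at chr3R:26585156-26585185, where 8 head isoforms and 1 embryo isoform ended.
scrib, end at 26585185: cactatccagcggtcgcagtacccccagca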
